A study of Homo sapiens with 12 samples.

Results

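Collagen chain genes were described in bulk RNA-seq of iMGLs, microglia-like cells differentiated from the established human iPSC line WTC11. Members were all genes of the deposited count table whose symbol is COL, a number, A and a number, which gave 44 of 62703 genes. The chains were 9 of the classical fibrillar types (COL1, COL2, COL3, COL5 and COL11), 6 of basement membrane type IV (COL4), 5 of beaded filament type VI (COL6) and 24 others. The others were 10 fibril-associated chains, 4 transmembrane chains, 3 short network-forming chains (COL8 and COL10), 2 multiplexins (COL15A1 and COL18A1), 2 later described fibrillar chains (COL24A1 and COL27A1), the anchoring fibril chain COL7A1, and COL26A1 and COL28A1, which were left unclassed.

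The 12 libraries came from 3 WT clones (J, K and L) and 3 LACTBKO clones (A, B and C), all isogenic clonal lines made by CRISPR editing of WTC11, each taken through 2 differentiations. Cells were grown with IL34, TGFb and MCSF, then also with CX3CL1 and CD200, and received no other treatment. A library is named here by its clone letter and differentiation number, so that J1 is WT clone J in differentiation 1, and the differentiation is the batch that the labels give. Each genotype is therefore 3 clones of 1 parental line, and p-values of the genotype comparison on clone sums measure the spread between those clones.

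Collagens are secreted proteins of the extracellular matrix in which 3 chains wind into a helix. Type I and type III chains form the main fibrils of connective tissue, with types V and XI as minor partners within the fibril, whereas type IV forms the sheet of basement membranes and type VI forms beaded filaments around cells. Fibroblasts and mural cells are known as the main producers of fibrillar collagen, and microglia are known rather for the uptake and breakdown of matrix.

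Libraries held between 24153233 and 28406943 estimated counts (median 27456867.5). LACTB itself was measured at 70.8 to 98.2 CPM (counts scaled to library size with TMM factors) in the 6 WT libraries, at 7.54 to 9.76 CPM in the 4 libraries of LACTBKO clones A and C, and at 44.4 and 51.6 CPM in B1 and B2. All 16 microglia markers passed the expression filter, with a summed level of 8220 to 10204 CPM in WT and 8069 to 8918 CPM in LACTBKO libraries. WT libraries J1 and K2 stood apart by their collagen level, and WT library J2 by the highest microglia marker sum and by CTSB, a lysosomal protease, at 4600 CPM against a median of 1068 CPM over all libraries.

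Most of the collagen RNA in the data set lay in J1 and K2. Collagen chains took 1.20% of all counts in J1 and 0.688% in K2, followed by 0.162% in LACTBKO library B2, 0.0977% in J2 and 0.0933% in L1. In the other 7 libraries the share lay between 0.0178% in C2 and 0.0320% in B1, with A1 at 0.0311%, C1 at 0.0217%, L2 at 0.0212%, A2 at 0.0205% and K1 at 0.0193%. The share thus ranged 67.4-fold, while the 95% Wilson interval of a share was never wider than 0.00413 percentage points to either side, which covers counting error only. WT and LACTBKO libraries overlapped, and the 2 libraries of clone K lay near opposite ends of the range.

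**Figure D1:**
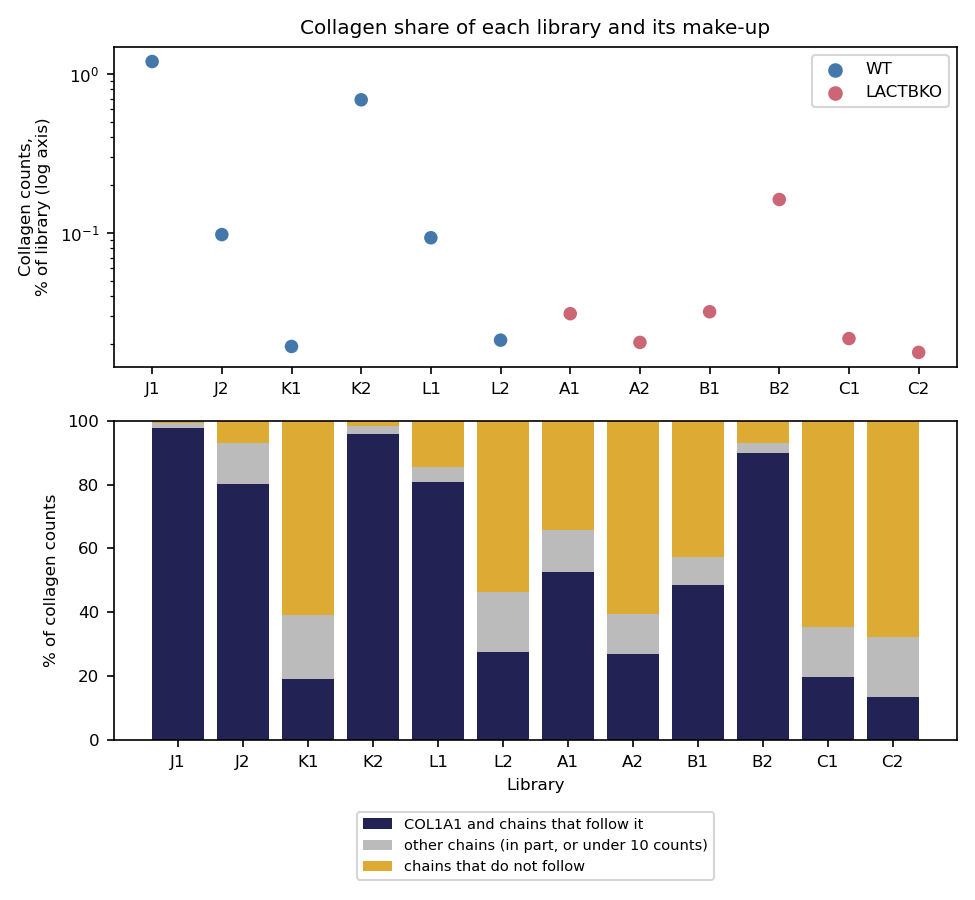
The upper panel gives the share of all counts of a library that fell on collagen chains (percent, log axis) for 6 WT (blue) and 6 LACTBKO (red) libraries, and the lower panel divides the collagen counts of each library into 3 sets of chains (percent). J1 and K2 sit highest at 1.20% and 0.688%, and the yellow part, chains that do not follow COL1A1, is largest in C2 at 67.5%.

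COL1A1 was the most abundant chain by count in J1, J2, K2, L1, A1 and B2. In these libraries the fibrillar chains made up 36.7% (A1) to 86.2% (J1) of collagen counts. In K1, L2, A2, C1 and C2 the leading chain was COL26A1 or COL8A2 instead, and fibrillar chains made up 8.61% (C2) to 21.3% (A2). In B1 COL8A2 came first and COL1A1 next, and fibrillar chains made up 39.6%.

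Each chain was set beside COL1A1 over the 12 libraries by Pearson's r of log2 CPM (prior count 2), as a description without a test, because the 2 libraries of a clone are not independent and all points share the same libraries and depths. A chain with a mean of at least 10 counts per library was said to follow COL1A1 with r of at least 0.8, to follow it in part from 0.5 to under 0.8, and not to follow it under 0.5. Of the 43 other chains, 14 followed COL1A1 (r 0.801 to 0.997), 5 followed it in part (0.509 to 0.774), 9 did not follow it (-0.656 to 0.476), and 15 had a mean under 10 counts. Among the 15736 other genes with a mean of at least 10 counts that passed the expression filter, 2.9% reached 0.8 and 88.3% lay under 0.5. The chains that followed were COL1A2, COL3A1, COL5A1, COL5A2 and COL11A1 of the fibrillar class, COL4A1, COL4A2 and COL4A5 of basement membranes, COL6A2 and COL6A3 of beaded filaments, and COL8A1, COL12A1, COL16A1 and COL27A1. Chains that followed in part were COL2A1, COL5A3, COL6A1, COL15A1 and COL18A1. Of these, COL2A1 (0.311), COL15A1 (-0.161) and COL18A1 (0.137) fell under 0.5 without the 2 libraries farthest from the median of COL1A1. The same chains fell under 0.5 over the 6 LACTBKO libraries (0.232, -0.024 and 0.002). COL7A1, COL8A2, COL9A2, COL9A3, COL11A2, COL19A1, COL23A1, COL24A1 and COL26A1 did not follow. Over the 6 libraries of differentiation 1 alone, COL7A1 (0.735), COL11A2 (0.721) and COL24A1 (0.677) followed in part, which left 6 chains that did not follow, and over the 6 LACTBKO libraries 12 did not.

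**Figure D2:**
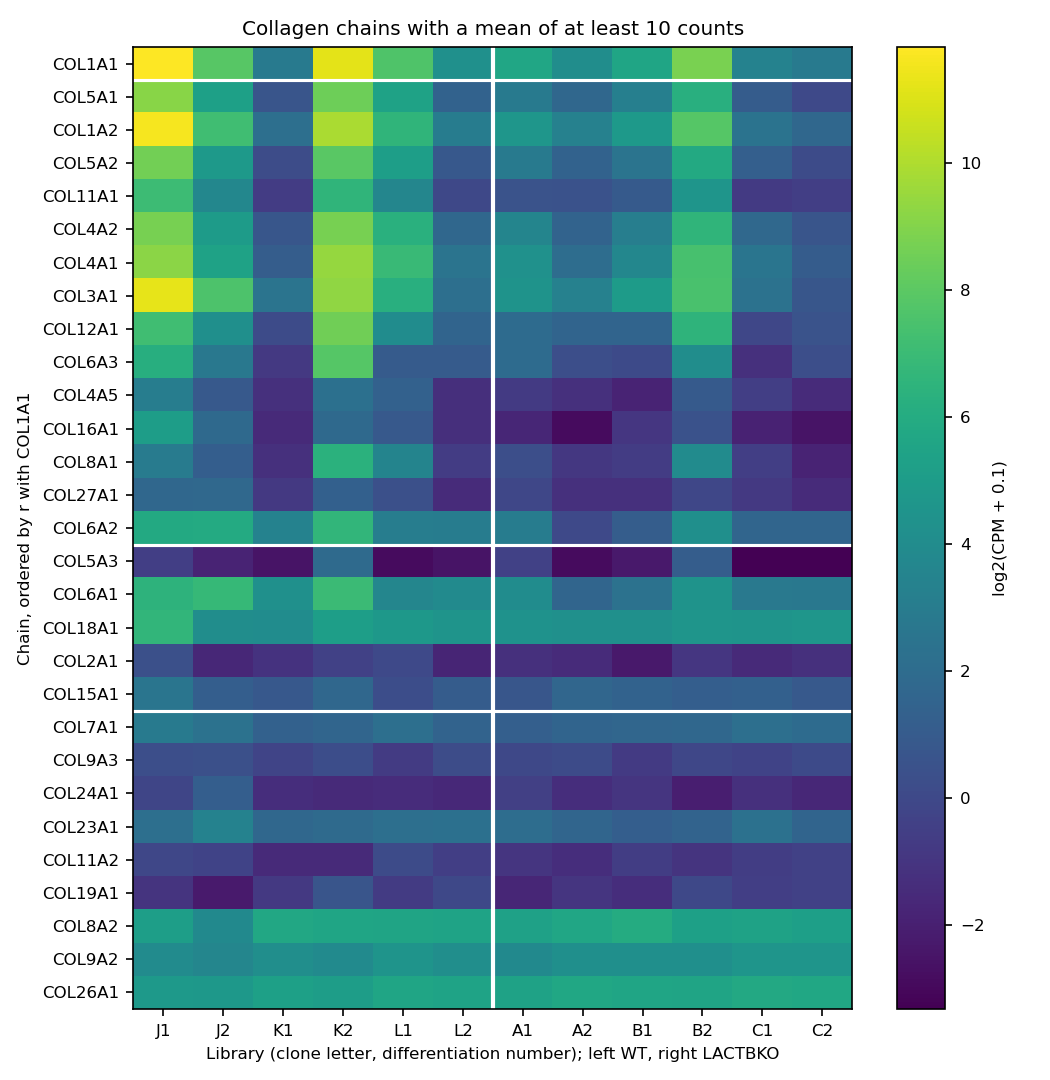
Each cell gives log2(CPM + 0.1) of a chain (rows, ordered by r with COL1A1 within 4 blocks divided by white lines) in a library (columns, WT left and LACTBKO right of the white line). The upper blocks, COL1A1 and the 14 chains that follow it, are brightest in J1 and K2, COL9A2 and COL26A1 at the bottom keep nearly the same shade throughout, and COL8A2 does so apart from J2 (14.6 CPM against 35.5 to 63.0).

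Stretches of DNA just upstream of the RefSeq start sites are shown for chains that stand for these patterns. RefSeq promoters on GRCh38.p14 (250 bases before to 50 after the start) were matched by symbol for 32 of the 44 chains, with 44 promoters in all, and not for COL1A1, COL1A2, COL2A1, COL3A1, COL5A2, COL6A1, COL6A5, COL8A1, COL9A3, COL14A1, COL20A1 and COL22A1. Capitals mark any match, on either strand, to 3 short motifs. The TATA box was searched as TATAAA. The CCAAT box was searched by the letters of its name. The GC box was searched as GGGCGG. Where matches overlap or adjoin they run together. COL4A1 and COL4A2 are given because both followed COL1A1 and are encoded head to head, COL5A1 because it had the highest r, and COL8A2, COL9A2 and COL26A1 because they were the most abundant chains that did not follow.
COL4A1 to COL4A2, all 126 bases between the start sites, chr13:110307158-110307283, + strand, of which the last 26 lie in an exon of a longer GENCODE transcript of COL4A2: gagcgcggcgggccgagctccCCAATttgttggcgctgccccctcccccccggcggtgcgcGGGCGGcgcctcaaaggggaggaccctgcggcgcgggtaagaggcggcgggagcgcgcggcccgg
COL5A1, 150 bases upstream, chr9:134641653-134641802, + strand: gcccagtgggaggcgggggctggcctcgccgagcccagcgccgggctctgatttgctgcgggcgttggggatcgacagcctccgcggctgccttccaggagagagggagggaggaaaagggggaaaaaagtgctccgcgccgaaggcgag
COL8A2, 150 bases upstream, chr1:36125223-36125372, - strand: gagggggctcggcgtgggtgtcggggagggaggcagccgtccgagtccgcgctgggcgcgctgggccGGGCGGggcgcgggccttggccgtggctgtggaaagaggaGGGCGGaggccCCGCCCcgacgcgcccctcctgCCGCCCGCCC
COL9A2, 150 bases upstream, chr1:40317287-40317436, - strand, of which 58 lie in exons of GENCODE transcripts: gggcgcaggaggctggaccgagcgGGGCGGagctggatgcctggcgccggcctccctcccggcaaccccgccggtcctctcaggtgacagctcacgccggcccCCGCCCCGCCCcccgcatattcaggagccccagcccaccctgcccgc
COL26A1, 150 bases upstream, chr7:101362725-101362874, + strand: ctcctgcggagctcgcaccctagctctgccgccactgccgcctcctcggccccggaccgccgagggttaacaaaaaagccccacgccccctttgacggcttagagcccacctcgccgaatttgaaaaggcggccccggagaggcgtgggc
The stretch between COL4A1 and COL4A2 held 1 CCAAT box and 1 GC box, that of COL8A2 5 GC boxes and that of COL9A2 3 GC boxes, while none of these letters was found in the stretches of COL5A1 and COL26A1. Over whole promoters, a GC box was found in 9 of 11 promoters of chains that followed and in 7 of 12 of those that did not, against 45.0% of all 35116 promoters. The CCAAT box was found in 4 of 11 and 2 of 12, against 34.6%, and the TATA box in 1 of 11 and 1 of 12, against 11.5%. The 11 promoters belong to 10 chains and the 12 to 8, since COL5A1, COL11A2 and COL24A1 have more than 1, so promoters are not separate chains. Both CCAAT matches among chains that did not follow lay in promoters of COL11A2. COL4A1 and COL4A2 share the stretch printed above, so its matches count for each. These counts are descriptions of letters in a window.

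COL1A1, which encodes the alpha 1 chain of type I collagen (ENSG00000108821.14, chr17:50184101-50201632, - strand, GRCh38), was measured in WT libraries at 3640.0 CPM (J1), 242 (J2), 7.45 (K1), 2370.0 (K2), 205 (L1) and 19.4 (L2). In LACTBKO libraries it was measured at 49.3 CPM (A1), 17.2 (A2), 48.7 (B1), 446 (B2), 10.6 (C1) and 7.2 (C2). The highest library stood 506-fold above the lowest, and the genotypes overlapped, since K1 and L2 lay among the LACTBKO libraries. Fewer cells of a type and less RNA per cell cannot be told apart in such bulk samples.

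COL1A2, which encodes the partner chain of type I collagen (chr7:94394895-94431227, + strand), was measured in WT at 3123 CPM (J1), 146 (J2), 4.59 (K1), 961 (K2), 95.3 (L1) and 7.97 (L2). The LACTBKO libraries gave 25.2 CPM (A1), 9.99 (A2), 29.5 (B1), 230.4 (B2), 5.31 (C1) and 3.23 (C2). Its order over libraries was nearly that of COL1A1 (r = 0.996), with a slope of 1.02 log2 units per log2 unit of COL1A1. Per kilobase of exon, the level of COL1A2 was 0.338 (K2) to 0.715 (J1) times that of COL1A1.

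COL3A1, the chain of type III collagen (chr2:188974373-189012746, + strand), was measured in WT at 2425 CPM (J1), 191 (J2), 5.57 (K1), 639.8 (K2), 75.9 (L1) and 4.57 (L2). Levels in LACTBKO libraries were 21.8 CPM (A1), 9.8 (A2), 31.3 (B1), 180.4 (B2), 5.1 (C1) and 1.57 (C2). It followed COL1A1 (r = 0.981), but its ratio to COL1A1 per kilobase of exon moved 3.61-fold, from 0.292 in C2 to 1.05 in J2.

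Of the minor fibrillar partners, COL5A1 and COL5A2 of type V collagen had r of 0.997 and 0.994, and COL11A1 of type XI had 0.989. COL5A1 ranged from 1.48 to 563 CPM (median 40.9) in WT and from 0.9 to 75.3 CPM (median 5.46) in LACTBKO libraries. Its ratio to COL1A1 per kilobase of exon stayed within 0.101 (C2) and 0.169 (L1), a 1.68-fold range. COL5A2 ranged from 1.01 to 384 CPM over all libraries and COL11A1 from 0.499 to 136 CPM. The third type V chain, COL5A3, was low, with up to 103 counts (K2), 60 in B2 and 0 in C1 and C2, where 3 counts would be 0.112 and 0.111 CPM, and followed in part (r = 0.774).

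The fibrillar chains COL2A1 and COL11A2 followed COL1A1 in part and not at all, respectively. COL2A1, the chain of type II collagen, had 3 to 32 counts, the highest in J1 and L1 (27), and followed in part (r = 0.661). COL11A2, the type XI partner of COL11A1, had 22 counts in J1, 19 in J2, 7 in K1, 7 in K2, 29 in L1 and 16 in L2. In LACTBKO libraries it had 10 (A1), 8 (A2), 16 (B1), 11 (B2), 16 (C1) and 18 (C2) counts, so that K2, second in collagen, had one of the lowest COL11A2 counts (r = 0.127).

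**Figure D3:**
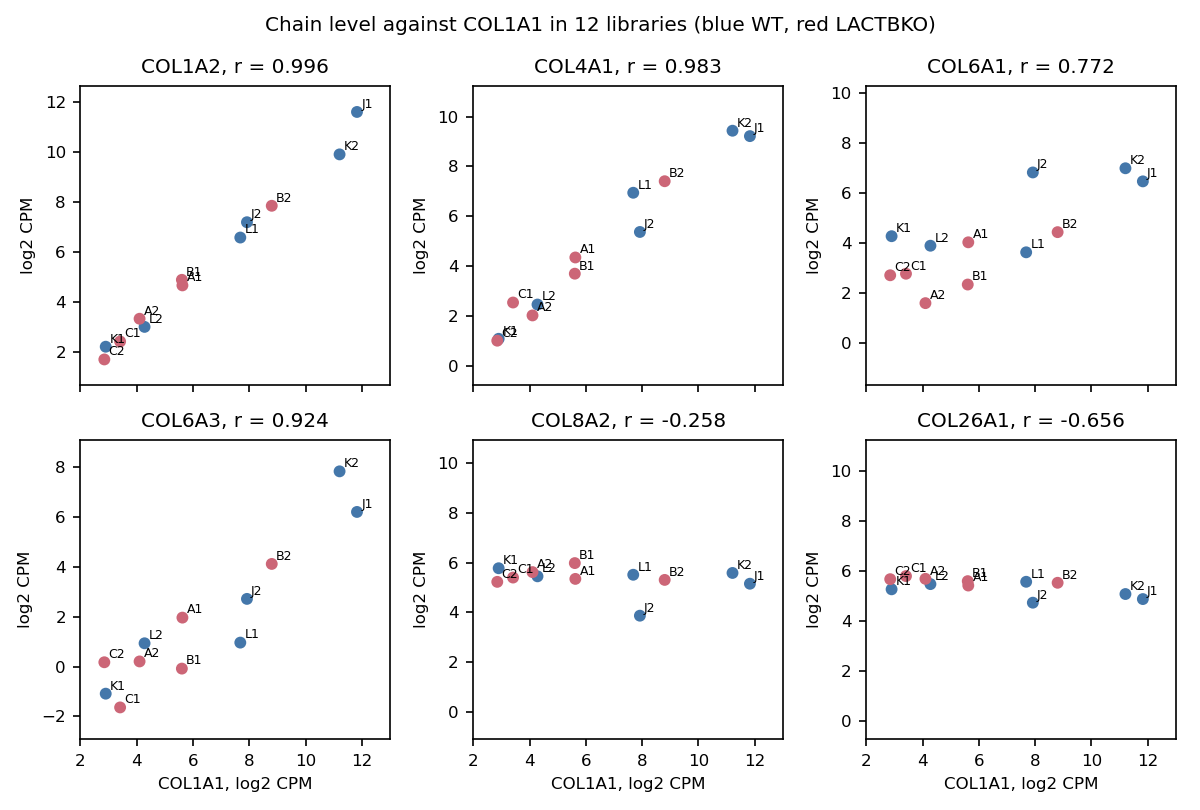
Each panel plots the log2 CPM of a chain against that of COL1A1, with 1 point per library (blue WT, red LACTBKO) and panels spanning the same number of log2 units. COL1A2 (r = 0.996), COL4A1 (0.983) and COL6A3 (0.924) rise along the axis, COL6A1 (0.772) has J2 and K1 above the rest of its trend, and COL8A2 (-0.258) and COL26A1 (-0.656) stay nearly level.

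COL4A1, the most abundant basement membrane chain (chr13:110148963-110307157, - strand), was measured in WT at 595 CPM (J1), 41.5 (J2), 2.13 (K1), 691 (K2), 123 (L1) and 5.53 (L2). LACTBKO libraries held 20.4 CPM (A1), 4.09 (A2), 13.03 (B1), 169.9 (B2), 5.85 (C1) and 2.02 (C2). It followed COL1A1 (r = 0.983) but was highest in K2 rather than J1, and its ratio to COL1A1 per kilobase of exon ran from 0.1004 in J1 to 0.369 in L1. COL4A2, its partner in the common type IV helix (r = 0.989 with COL1A1), kept a nearly fixed ratio to COL4A1, from 0.431 (C1) to 0.593 (J2), a 1.37-fold range over libraries in which COL4A1 itself ranged 341-fold. The correlation between COL4A1 and COL4A2 was 0.999 over the 12 libraries.

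The other type IV chains, of more restricted basement membranes, were low. COL4A5 followed COL1A1 (r = 0.922) with 8 to 229 counts in WT and 5 to 52 in LACTBKO libraries, highest in J1. Its slope was 0.497, so that it spanned fewer log2 units than COL4A1 (0.946). COL4A6, encoded head to head with COL4A5 on chromosome X with 379 bases between the RefSeq starts, reached at most 19 counts (J2). COL4A4 reached 23 counts (J1) and COL4A3 2 counts, and 418 bases lie between the starts of these 2 genes on chromosome 2.

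COL6A1, the most abundant type VI chain (chr21:45981770-46005050, + strand), was measured in WT at 88.6 CPM (J1), 114 (J2), 19.3 (K1), 128 (K2), 12.3 (L1) and 14.8 (L2). In LACTBKO it was measured at 16.3 CPM (A1), 3.01 (A2), 5.04 (B1), 21.6 (B2), 6.81 (C1) and 6.53 (C2). J2 stood with J1 and K2 here, although its COL1A1 was 242 CPM against 3640.0 in J1. COL6A2, its neighbour on chromosome 21 and partner in the type VI helix, went with it (r = 0.990 between both chains), at 57.8 CPM in J1, 62.1 in J2 and 98.6 in K2, and lay just inside the limit for following COL1A1 (r = 0.801), whereas COL6A1 lay just outside it (0.772).

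COL6A3, the large chain that completes type VI collagen (chr2:237324003-237414328, - strand), behaved differently from both. It was measured at 73.3 CPM in J1 and 226 in K2 but at 6.54 in J2, and in the other WT libraries at 0.47 (K1) to 1.94 (L1) CPM. Its r with COL1A1 was 0.924. The ratio of COL6A3 to COL6A1 per kilobase of exon ran from 0.00626 in K1 (13 counts of COL6A3) to 0.457 in K2, a 72.9-fold range, against 2.84-fold for COL6A2 to COL6A1. The size of these ratios depends on the exon length used, all annotated exon bases of a gene, but their range over libraries does not. COL6A5 and COL6A6 had at most 4 counts.

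**Figure D4:**
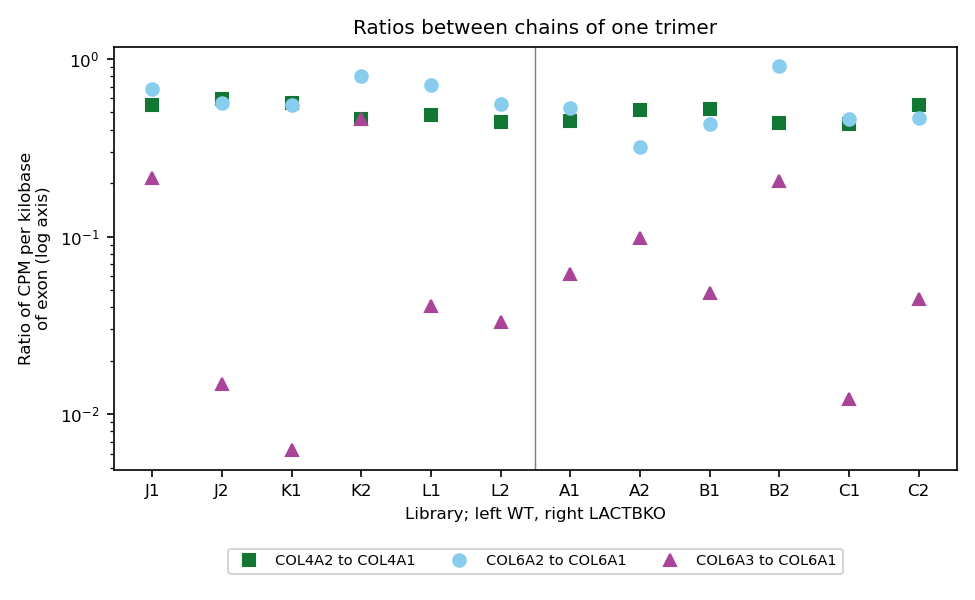
Points give, for each library, the ratio of CPM per kilobase of exon (log axis) of 2 chains that share a helix. COL4A2 to COL4A1 stays within 0.431 and 0.593 and COL6A2 to COL6A1 within 0.320 and 0.911, while COL6A3 to COL6A1 runs from 0.00626 in K1 to 0.457 in K2.

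Among the remaining classes, COL12A1, a fibril-associated chain that bridges type I fibrils and neighbouring matrix, had the highest mean count. It was measured in WT at 147 CPM (J1), 18.7 (J2), 1.01 (K1), 376 (K2), 16.8 (L1) and 2.86 (L2). The LACTBKO libraries gave 3.76 CPM (A1), 2.86 (A2), 2.83 (B1), 93.6 (B2), 0.82 (C1) and 1.39 (C2). It followed COL1A1 (r = 0.970), with K2 above J1 and B2 far above the other LACTBKO libraries.

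COL8A1, a short chain of endothelial and corneal networks, followed (r = 0.900) and was highest in K2 (81.6 CPM), then B2 (15.5) and L1 (11.5), with J1 at 7.74. COL16A1, also fibril-associated, followed (r = 0.914) but was highest in J1 (34.7 CPM), then K2 (3.49) and J2 (3.48). COL27A1 followed (r = 0.862) at 7 to 91 counts, and was the only one of the 14 chains that was highest in neither J1 nor K2, its highest library being J2. Among the multiplexins, COL18A1, whose end fragment is endostatin, ranged from 16.7 to 99.7 CPM, with J1 highest, K2 next (35.5) and all others under 27 CPM (r = 0.692). Of the exon bases of COL18A1, 18.5% overlap SLC19A1 on the other strand, so that without strand their reads cannot be told apart. COL15A1 ranged from 32 to 155 counts (r = 0.509), highest in J1.

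The chains that did not follow COL1A1 were led by 3, of which COL26A1 and COL9A2 varied little over libraries and COL8A2 varied little apart from a low level in J2. COL26A1, a secreted chain with short collagenous stretches (chr7:101362875-101559024, + strand), was measured in WT at 29.5 CPM (J1), 26.7 (J2), 38.7 (K1), 33.9 (K2), 47.7 (L1) and 44.7 (L2). Levels in LACTBKO libraries were 42.9 CPM (A1), 51.7 (A2), 48.5 (B1), 46.3 (B2), 55.8 (C1) and 51.2 (C2). The highest library was 2.09-fold above the lowest, and r was -0.656. The 3 lowest libraries were J2, J1 and K2, and L1 and L2 lay among the LACTBKO libraries.

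COL8A2, the partner of COL8A1 in type VIII collagen (chr1:36095239-36125222, - strand), was measured in WT at 35.5 CPM (J1), 14.6 (J2), 54.6 (K1), 47.9 (K2), 45.6 (L1) and 43.6 (L2). In LACTBKO it was measured at 40.6 CPM (A1), 49.1 (A2), 63.0 (B1), 39.5 (B2), 42.2 (C1) and 37.4 (C2). Apart from J2, all libraries lay between 35.5 and 63.0 CPM (r = -0.258). The ratio of COL8A1 to COL8A2 per kilobase of exon accordingly ranged 339.8-fold, from 0.00249 in C2 to 0.845 in K2.

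COL9A2, a type IX chain found on the surface of cartilage fibrils (chr1:40300489-40317813, - strand), was measured in WT at 16.1 CPM (J1), 12.1 (J2), 17.7 (K1), 15.4 (K2), 22.9 (L1) and 18.03 (L2). LACTBKO libraries held 14.3 CPM (A1), 18.6 (A2), 18.3 (B1), 18.5 (B2), 24.2 (C1) and 24.0 (C2). It ranged 2.0-fold and had r = -0.470. Its partners were low, COL9A3 at 14 to 32 counts and COL9A1 at no more than 1 count. COL9A3 had 31 (J1), 32 (J2), 21 (K1), 31 (K2), 15 (L1) and 27 (L2) counts in WT and 21 (A1), 27 (A2), 14 (B1), 24 (B2), 20 (C1) and 26 (C2) in LACTBKO libraries, with r = 0.294.

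Levels per kilobase of exon set chains side by side only roughly, since the length counts all annotated exon bases of a gene. On this scale COL26A1 had the highest median level over the 12 libraries at 14.7 CPM per kilobase. Next came COL8A2 at 9.19, COL1A1 at 5.44, COL9A2 at 4.31 and COL3A1 at 3.92. By the highest library the order was COL1A1 (404), COL3A1 (359) and COL1A2 (289). Summed over the 9 chains that did not follow, the level lay between 72.9 CPM (J2) and 137 CPM (B1), a 1.88-fold range, although their share of collagen counts ran from 0.808% in J1 to 67.5% in C2.

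The other 5 were less abundant. COL7A1, the chain of the anchoring fibrils under epithelia, was measured in WT at 7.51 CPM (J1), 5.12 (J2), 2.5 (K1), 3.0 (K2), 4.44 (L1) and 2.71 (L2) and in LACTBKO at 2.28 (A1), 2.86 (A2), 3.08 (B1), 3.21 (B2), 4.56 (C1) and 3.79 (C2). It was highest in J1 but at 3.0 CPM in K2, and its r of 0.476 lay just under the limit of 0.5. COL23A1, a transmembrane chain, was measured in WT at 4.58 CPM (J1), 10.2 (J2), 3.22 (K1), 3.74 (K2), 4.44 (L1) and 4.76 (L2) and in LACTBKO at 4.22 (A1), 2.93 (A2), 2.18 (B1), 2.72 (B2), 4.95 (C1) and 2.85 (C2), with r = 0.228. J2 was its highest library.

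COL24A1, a later described fibrillar chain, had 21 (J1), 58 (J2), 8 (K1), 7 (K2), 8 (L1) and 6 (L2) counts in WT and 15 (A1), 8 (A2), 11 (B1), 4 (B2), 9 (C1) and 6 (C2) in LACTBKO libraries. J2 was again highest, and r was 0.267. COL19A1, a rare fibril-associated chain, had 10 (J1), 3 (J2), 13 (K1), 43 (K2), 15 (L1) and 23 (L2) counts in WT and 5 (A1), 11 (A2), 8 (B1), 25 (B2), 17 (C1) and 18 (C2) in LACTBKO libraries. It was highest in K2 and lowest in J2, with r = 0.105.

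Chains under a mean of 10 counts were measured too thinly to be set against COL1A1. Their highest counts in any library were 23 for COL4A4, 19 for COL4A6, 17 for COL14A1, 9 for COL25A1, 6 for COL21A1, 5 for COL10A1, 4 each for COL6A5, COL6A6 and COL20A1, 3 for COL17A1, 2 each for COL4A3 and COL13A1, and 1 each for COL9A1, COL22A1 and COL28A1. Of these 15 chains, 10 had their highest count in J1, ties included. A count of 0 allows up to 3 counts, or 0.106 to 0.124 CPM depending on the library, so that no chain can be called absent.

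Many non-collagen genes of the same matrix had a high r with COL1A1. Of 25 fibroblast and mural cell markers (collagens left out), 19 had a mean of at least 10 counts and passed the expression filter, and 14 of these had r of at least 0.8 with COL1A1. The summed level of all 25 was 2707 CPM in J1, 2004 in K2, 622 in B2, 537 in L1 and 307 in J2. In the others it lay between 129 (K1) and 238 (L2) CPM. WT libraries thus ranged from 129 to 2707 and LACTBKO libraries from 142 to 622 CPM. SPARC, a collagen-binding protein (r = 0.988), and the microfibril gene FBN1 (0.962) were high where COL1A1 was, whereas FBLN1 (-0.317) was not. TWIST2 and TCF21 never exceeded 3 counts and PDGFRA 11. Single genes made up much of the sum in some libraries, SPARC with 1690 CPM in J1 and FBLN1 with 192 CPM in L2. The 14 chains that followed had r between 0.764 and 0.940 with this sum, and the 9 that did not between -0.575 and 0.494. COL1A1 itself had r = 0.932 with the sum in the same libraries, so this split largely follows from the grouping by COL1A1. The part of such cells in the collagen level was not tested.

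None of the 16 microglia markers had a positive r of 0.8 or more with COL1A1, and CSF1R (-0.658), C1QC (0.382) and CX3CR1 (-0.413) were the most abundant. The purinergic receptor genes P2RY12 (r = -0.873, 61.4 to 132 CPM) and P2RY13 (-0.711, 93.1 to 210.6 CPM) went in the opposite direction to COL1A1, and were named here after their values were seen. With the microglia sum, the chains that followed had r between -0.156 and 0.226, while COL8A2 had -0.740 and COL23A1 0.584, both chains in which J2 was the extreme library. Endothelial markers summed to 1.26 to 12.1 CPM over WT and 1.16 to 2.40 CPM over LACTBKO libraries, with KDR at up to 165 counts (J1). Cartilage markers summed to 5.15 to 15.4 CPM outside K2 and to 109 CPM in K2, of which HAPLN1 gave 97.1, while MATN3 and SOX9 stayed at 2.07 to 3.56 CPM. Epithelial markers summed to 53.8 to 65.0 CPM outside J1 and to 217 CPM in J1, through KRT8 (128 CPM) and KRT18 (82.6). Neural and glial markers, led by S100B (184 to 400 CPM), summed to 207 to 433 CPM, and pluripotency markers, led by SALL4, to 0.69 to 7.35 CPM. The part of these cell types was not tested either.

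Genes that make, fix or remove collagen were set against COL1A1 in the same way. All 5 cross-linking enzymes were expressed, and 4 followed COL1A1, including the lysyl oxidase genes LOX (r = 0.995, 1.39 to 142 CPM) and LOXL2 (0.979, 0.542 to 123 CPM). LOXL3, the most abundant, had r = 0.552 and stayed between 36.1 and 53.3 CPM. Of 8 fibril-associated proteoglycans and glycoproteins with enough counts, 7 followed, with fibronectin gene FN1 at 84.1 to 5368 CPM (r = 0.956) and THBS1 at 0.844, and SPARC stands in this list too.

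Of 17 folding and modifying enzymes, 7 followed, among them the collagen chaperone SERPINH1 (r = 0.894, 47.2 to 126 CPM), but the 3 most abundant, P4HB (0.452), COLGALT1 (0.566) and PPIB (-0.172), did not reach 0.8. Of 7 genes of secretion and propeptide processing, 3 followed, among them SEC23A (0.809), whereas the export receptors MIA3 (-0.427) and MIA2 (-0.414) did not. For collagen receptors 4 of 11 followed, and for degradation and its inhibitors 1 of 9. Their most abundant genes, MRC2 (0.750), ITGB1 (0.337), CD36 (0.169), CTSB (0.223), MMP14 (0.350) and CTSS (0.208), were expressed in every library, MMP14 at 1034 to 1689 CPM. SERPINH1 was named here after its values were seen.

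LACTBKO clones were compared with WT clones to ask whether loss of LACTB goes with another collagen level, on counts summed over the 2 libraries of a clone. Of 31 chains that passed the expression filter, 28 were lower and 3 higher in LACTBKO clones. The log2 fold change had a median of -1.85 over these chains and of 0.00669 over all 17577 genes tested. No chain and no gene had an adjusted p under 0.05 (0.0% of genes, edgeR's quasi-likelihood test with Benjamini-Hochberg adjustment), and the smallest adjusted p of a chain was 0.726. At an unadjusted p under 0.05, 15 chains were lower, against 5.56% of all genes, and 1 chain was higher, against 0.802%. The chains are not separate observations, since 14 of the 31 followed COL1A1 and were high in much the same libraries. Counts of chains here and below therefore do not measure whether collagen chains stand out from other genes. The 31 chains include 2 with a mean under 10 counts, COL4A4 and COL4A6, and 13 chains were not tested.

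By class, the median log2 fold change was -3.17 for 9 fibrillar, -2.28 for 5 basement membrane and -2.76 for 3 beaded filament chains. It was -3.03 for the 14 chains that followed COL1A1, all of them lower, and -0.32 for the 9 that did not, of which 6 were lower. Both sets were formed by r with COL1A1 in these same libraries. COL1A1 was itself lower, so this split follows from the grouping and is no further evidence. Values for single chains were -3.48 ± 1.41 (SE, 3 clones per genotype) for COL1A1, -3.82 ± 1.55 for COL1A2, -2.76 ± 1.17 for COL4A1, -2.68 ± 0.69 for COL6A1 and -2.41 ± 1.47 for COL12A1. Without clone B, the LACTBKO clone with the most LACTB RNA, these came to -5.71 for COL1A1, -6.07 for COL1A2, -4.95 for COL4A1 and -5.43 for COL12A1, and to -2.97 for COL6A1. Clone B was also the highest LACTBKO clone for each of these chains, so leaving it out had to make the LACTBKO level lower. Without clone J COL1A2 came to -2.40, and without clone K COL12A1 came to -1.37. Each of these clones was the highest WT clone for that chain. For COL1A1 the clone levels were 1931, 1203 and 117 CPM in J, K and L and 32.3, 250.5 and 8.98 CPM in A, B and C, and an exact two-sided permutation test on their log2 values, which cannot go below p = 0.1, gave p = 0.2.

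In 7 chains every LACTBKO clone lay below every WT clone, against 6.37% of all genes: COL2A1, COL4A5, COL4A6, COL6A1, COL16A1, COL18A1 and COL27A1. For COL6A1 the clones stood at 101, 74.1 and 13.50 CPM in WT and at 9.28, 13.48 and 6.69 CPM in LACTBKO, so that L and B barely differed. COL4A5 (5.15, 2.55 and 1.45 against 0.410, 1.02 and 0.440 CPM) was the only chain with an adjusted p under 0.05 in DESeq2 (log2 fold change -2.29, adjusted p = 0.0122), where 0.973% of genes were called, and its adjusted p was 0.726 in edgeR.

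COL26A1 was the only chain with every LACTBKO clone above every WT clone, which was true of 4.38% of all genes. Its clones stood at 27.98, 36.3 and 46.2 CPM in WT and at 47.49, 47.51 and 53.7 CPM in LACTBKO, a log2 fold change of 0.43 ± 0.17 (SE, adjusted p = 0.761, edgeR), or 0.26 without clone J. The other 2 higher chains were COL8A2 (0.17 ± 0.25) and COL9A2 (0.21 ± 0.19), both with overlapping clones.

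**Figure D5:**
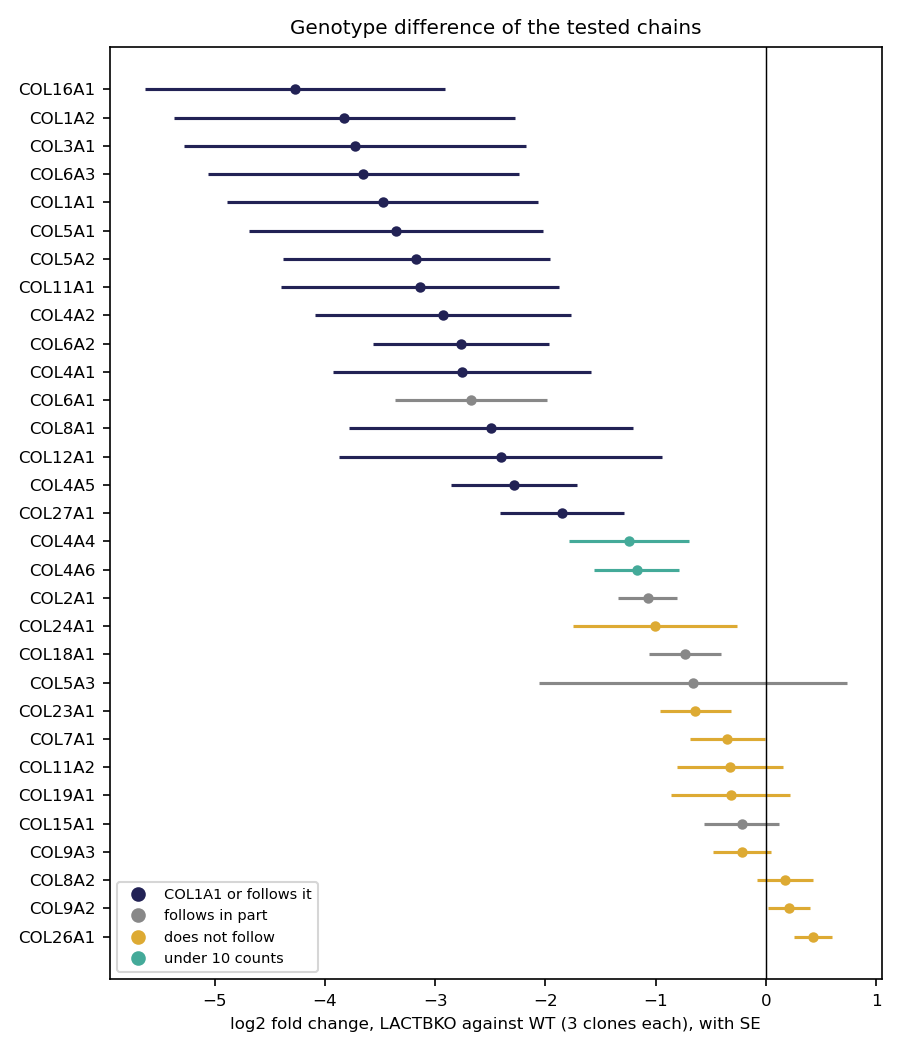
Points give the log2 fold change of LACTBKO against WT (3 clones each) and bars its standard error for the 31 tested chains, coloured by how they went with COL1A1. COL16A1 at -4.27 lies lowest, chains that follow lie at -1.85 or lower, and COL8A2, COL9A2 and COL26A1 alone lie right of 0.

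The comparison was repeated without J1 and K2. Both are WT libraries chosen after their collagen level was seen, so that leaving them out had to make the WT level lower. Then 20 of 29 chains were lower, the median was -0.31, and 3 chains (COL4A6, COL6A1 and COL6A2) had an unadjusted p under 0.05, against 2.62% of all genes. COL1A1 then came to -0.32 and COL4A1 to -0.03, while COL6A1 and COL6A2 came to -2.30 and -2.14. In this fit clone J was J2 alone and clone K was K1 alone. COL6A1 stood at 114 CPM in J2, but at 19.3 CPM in K1 and 13.50 in clone L. The LACTBKO clones were at 9.28, 13.48 and 6.69 CPM, so the remaining difference of COL6A1 rested mainly on J2. Of the chains that were lower in LACTBKO with all libraries, 6 were then higher, COL12A1 (0.85), COL6A3 (0.49), COL15A1 (0.34), COL19A1 (0.23), COL18A1 (0.16) and COL8A1 (0.07). Within differentiation 1 the median was -2.52 and 14 of 27 chains had an unadjusted p under 0.05, against 3.21% of genes, and within differentiation 2 it was -2.07 with 3 of 26 chains, against 3.36%. With clone as a random effect and the differentiation as block in limma voom, 3 chains had an unadjusted p under 0.05 (COL6A1 and COL6A2 lower, COL26A1 higher), against 3.99% of genes, and none an adjusted p under 0.05. Leaving out 1 clone at a time gave 5 (without A or without C) to 19 (without L) chains at that level, with 6 without J, 9 without K and 18 without B.

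Between the differentiations of a clone COL1A1 differed widely, but not in 1 direction. From differentiation 1 to 2, COL1A1 was higher by 8.30 log2 units in clone K and 3.19 in B, and its log2 difference was -3.91 in J, -3.40 in L, -1.52 in A and -0.56 in C. COL1A2, COL5A1 and COL4A1 had the same sign as COL1A1 in every clone, whereas the fibrillar chain COL11A2 differed by no more than 0.66 log2 units in any clone. COL26A1 differed by no more than 0.27 log2 units in any clone, and COL9A2 by no more than 0.41. Over all 6 clones, 11 of 30 tested chains were higher in differentiation 2 and 19 lower, and their median log2 fold change was -0.13. No chain passed an adjusted p of 0.05 (0.0% of genes) and none an unadjusted p of 0.05, against 9.13% of 17335 genes, in edgeR with clone as a fixed effect. DESeq2 gave 0 chains after adjustment and 1 before it.

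The difference between differentiations was also compared between genotypes. No chain had an adjusted p under 0.05 for this interaction (0.0% of genes). COL9A2 alone had an unadjusted p under 0.05, against 0.986% of genes, with a difference of 0.45 ± 0.18 log2 units (SE) and an adjusted p of 1.0 in edgeR's quasi-likelihood test. Without clone K, whose COL1A1 moved most, 13 of 29 chains had an unadjusted p under 0.05, against 7.76% of genes. Again none passed adjustment. K was the only WT clone with higher COL1A1 in differentiation 2, so leaving it out left WT clones of 1 direction. Leaving out J, L, A or C instead gave 0 chains at that level and leaving out B gave 1, against 0.426% to 2.85% of genes. The median interaction was 0.55 log2 units with all clones, 1.60 without K and -0.76 without J.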

How the data were processed

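Bulk RNA-seq counts per gene were used for 12 libraries. The authors trimmed paired-end reads with Cutadapt, used STAR with hg38 for alignment, and the deposited values are estimated counts, not normalised, for 62703 genes. The submitters' processing notes also name R 4.3.3. The counting program, annotation and strand setting are not given in the sources used here, and the kit (TruSeq v2) does not mark strand. Between 10.8 and 11.5% of values per library were fractional, and all were rounded to whole numbers, whereas whole counts had been planned for. WT columns carry another abbreviation than the labels and were matched through the sample descriptions, which name the columns.

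Counts were summed over the 2 libraries of a clone and LACTBKO was compared with WT (3 clones each) by edgeR 4.0.16 (TMM, filterByExpr, quasi-likelihood test, Benjamini-Hochberg adjustment, threshold 0.05). Differentiation 2 was compared with 1 over 12 libraries with clone as a fixed effect, and the interaction was fitted likewise. Standard errors given for edgeR were calculated back, as the absolute log2 fold change divided by the square root of the F statistic of the test. Limma 3.58.1 (voom, clone as random effect, differentiation as block) stood nearest to the mixed model of the study, which was not run, and DESeq2 1.42.0 was another alternative. Correlations used log2 CPM with a prior count of 2. Exon lengths and coordinates came from GENCODE 44 on GRCh38, where all 44 chains were found. On simulated counts for 17731 genes, the edgeR comparison of clones recovered 95% of 4-fold and 45% of 2-fold changes, with 5 false calls of 145. The simulation used the same fixed spread for every gene, not the spread of the collagen chains between clones. These shares therefore do not tell how often a change of a collagen chain would be found.

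Equal differentiation numbers pair libraries by label, since the labels give the differentiation as batch. Deviations from the genotype means had a mean correlation of 0.0346 over 18 pairs of libraries with the same number and of -0.0339 over 18 other pairs. Clone sums hold both differentiations in equal number. Depth was 24153233 to 28406943 counts, so that 3 counts correspond to 0.106 to 0.124 CPM.

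Values per library were given for COL1A1, COL1A2, COL3A1, the chain of highest mean count in each of 4 groups (fibrillar, basement membrane, beaded, others) and every chain of at least 10 counts that did not follow COL1A1, and other chains by ranges or single libraries. From each other list the 3 genes of highest mean count were named, with exceptions stated or named for a low count or a single high library. The members and lists were chosen with earlier results of these data known, and leaving out J1 and K2, or clones J and K, was chosen after seeing the data.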

Additional observations from a re-analysis of the deposited data

Results flagged for a closer look

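In 4 of 58 groups of 6 libraries (each chain of at least 10 mean counts within a genotype), 1 library lay so far from the others that the ratio of gap to range passed Dixon's 95% critical value, which chance gives in about 1 of 20 groups. COL8A2 was low in WT library J2, at a log2 CPM of 3.88 (14.6 CPM), and COL23A1 was high in the same library, at 3.37 (10.2 CPM). J2 is also the library with the highest microglia marker sum, 10204 CPM, and the highest CTSB level, 4600 CPM. In LACTBKO library B2, COL11A1 stood at 4.55 (23.3 CPM) and COL12A1 at 6.55 (93.6 CPM), both above the other 5 LACTBKO libraries, and the fibroblast and mural marker sum was 622 CPM there against 142 to 235 CPM in the others. The 4 of 58 groups lie close to the share that chance gives. COL11A1 and COL12A1 both followed COL1A1, so their levels in B2 are not separate observations. The part of these values in the outlying levels was not tested.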

How the results depend on the processing

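No collagen chain passed an adjusted p of 0.05 between genotypes in edgeR under any alternative run, while DESeq2 called 1 chain (COL4A5, -2.29), and at an unadjusted p under 0.05 edgeR had 16 chains and DESeq2 17. The median log2 fold change of the chains was -1.85, between -2.22 and -1.11 with 1 clone left out, and -0.31 without libraries J1 and K2, where 6 chains changed sign, among them COL6A3 (0.49), COL12A1 (0.85) and COL18A1 (0.16). Leaving out these WT libraries lowers the WT level by construction. COL8A2 ran from -0.082 (without WT clone J) to 0.38 (without WT clone K). With the differentiation as a replicate block the median was -2.28 (edgeR, 12 libraries) and -1.79 (limma voom, clone as random effect). At an unadjusted p under 0.05 they had 14 and 3 of 29 chains, against 7.4% and 3.99% of genes. None had an adjusted p under 0.05, so that the block changed no other call. The edgeR fit had no term for clone and took the 2 libraries of a clone as independent. In limma voom the consensus correlation between libraries of a clone was 0.055. Of 278 alternative values for 20 single chains, 273 kept their direction and side of the threshold. The smallest adjusted p of a chain was 0.726 in the main edgeR test, so the side of the threshold had little room to change. Size was not counted, and COL1A1, at -3.48 with all libraries and -0.32 without J1 and K2, was among those kept. Between differentiations, without clone J or without clone L 20 of 29 chains were higher in differentiation 2, in place of 11 of 30. The number of chains that followed COL1A1 was 14, and 12 to 16 under the alternatives run, and the number that did not was 9, and 6 (differentiation 1 alone) to 12 (Spearman's rho, without the 2 libraries farthest from the median of COL1A1, or LACTBKO libraries alone). Chains of few counts are limited by depth.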
